A study of Arabidopsis thaliana with 12 samples.

Results

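The 35 genes described here encode enzymes and regulators of the Calvin-Benson cycle (22 genes) and of photorespiration (13 genes) in *Arabidopsis thaliana*. They were picked by gene ID from the 36061 named genes of the count table, and all 35 passed the filter on low counts that left 19681 genes. RNA-seq was done on rosette leaves of Columbia-0 wild type (WT) and of T3 homozygous plants carrying the coding sequence of *MtPHD6*, a PHD-finger gene of the Alfin1-like family from *Medicago truncatula*, in a pCAMBIA1301S vector. Plants of each genotype were watered (WT-control and PHD6-control) or had water withheld (WT-drought and PHD6-drought) when 12 days old, with 3 libraries in each of the 4 groups. The study's text gives 7 d without water and the sample records give 10 days. Which transgenic line each library came from is not given, and the transgene transcript was not analysed here, so the genotype labels could not be checked.

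In the Calvin-Benson cycle, Rubisco joins CO2 to ribulose bisphosphate, the product is reduced to triose phosphate with ATP and NADPH, and further enzymes rebuild the acceptor. Rubisco also takes up O2, and the phosphoglycolate made then is salvaged by photorespiration, which runs through the chloroplast, the peroxisome and the mitochondrion and releases CO2 and ammonia when glycine is decarboxylated. The genes are strongly expressed in green leaf cells, and the nuclear *RBCS* family supplies the small subunit of Rubisco. The gene of the large subunit, *rbcL*, was not analysed here.

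Counts over named genes ran from 17839925 to 24717357 per library, and the 35 genes held 4.87 to 6.97% of them. Levels are given as CPM (counts scaled to a common library size) after TMM normalization, which adjusts library sizes for composition. The leaf label was checked against marker genes. The 7 photosystem and mesophyll genes of the list summed to 26724 to 46299 CPM. The 4 root genes summed to no more than 0.177 CPM, with *EXPA7* at 0 in all 12 libraries. In bulk leaf samples, fewer cells of a type and less RNA per cell cannot be told apart.

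A WT-control library lay well below the others of its group in these genes. In WT-control replicate 2, 34 of the 35 genes were lower than in both other WT-control libraries, and 26 were lower than in every WT-drought library. The same counts over all genes were not computed. The median over the 35 genes of the log2 ratio to the WT-control mean was -0.39 in WT-control replicate 2, 0.17 in replicate 1 and 0.14 in replicate 3. Other groups also had a library that was lowest in most genes. PHD6-control replicate 3 was lowest of its group in 30 of the 35, with a median of -0.03 against 0.08 and 0.16. Marker lists also differed in WT-control replicate 2. The 4 epidermis genes summed to 1000 CPM there against 997 and 1114 CPM, but this sum joins opposite moves. *ATML1*, *FDH* and *CER1* were lowest of the group in that library, and *PDF1* was highest, with 321 CPM against 139 and 263 CPM. The 4 guard cell genes summed to 1545 CPM there against 2280 and 2443 CPM, and the 4 phloem genes to 173 CPM against 242 and 235 CPM. The 7 photosystem and mesophyll genes summed to 31604 CPM in that library against 46299 and 41346 CPM in the other 2. The 4 flower and meristem genes *AP1*, *AG*, *AP3* and *STM*, none of them at 0 in any library, summed to 29.7 CPM there against 11.4 and 11 CPM. That sum ran from 7.91 to 17.9 CPM in WT-drought, 15.4 to 20.1 CPM in PHD6-control and 11.7 to 26.8 CPM in PHD6-drought, where replicate 1 had the highest sum and the lowest level of 31 of the 35 genes. The part of these tissues in the levels was not tested. Counts of called genes and medians that rest on WT-control are given with and without replicate 2. The WT drought changes of *RBCS1A*, *RCA*, *FBA1*, *GLDP1*, *GLDP2* and *HPR* are also given both ways. For most other single genes only the change in *MtPHD6* plants is given below.

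**Figure D1:**
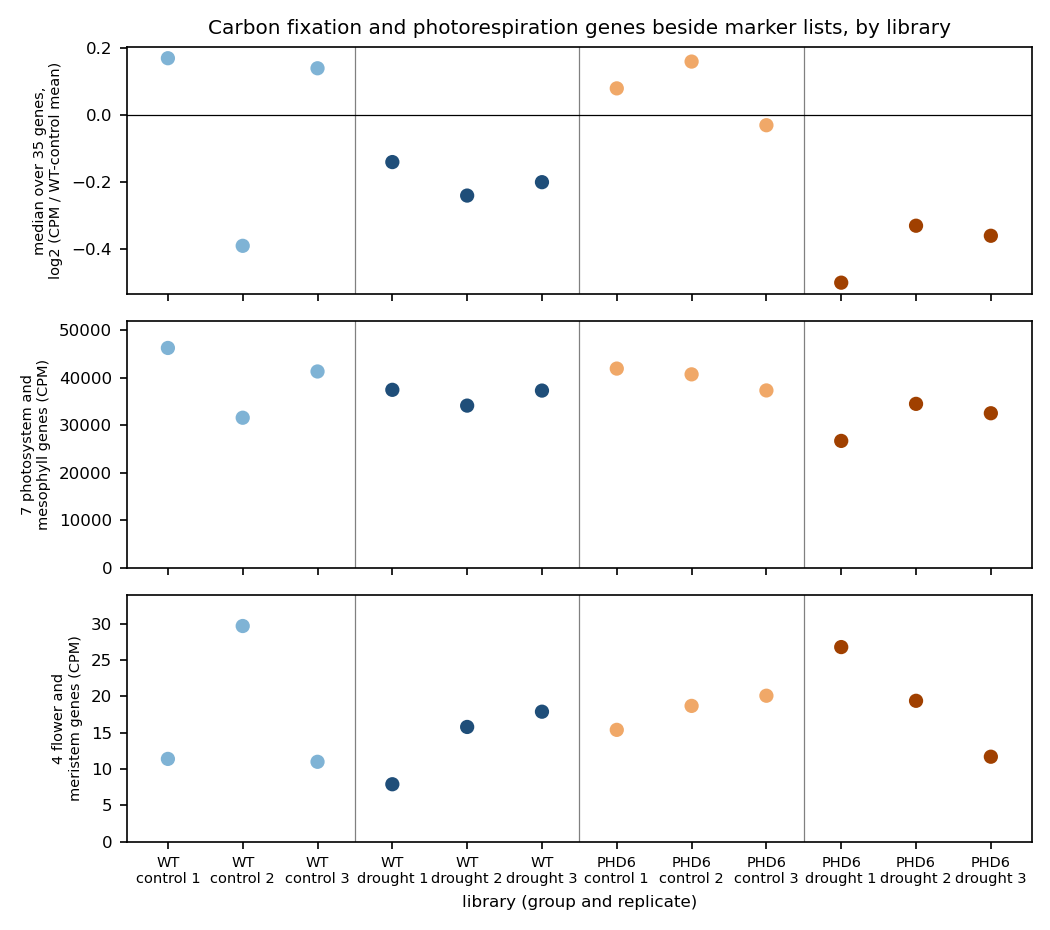
Each point is 1 of the 12 libraries. The upper panel plots the median over the 35 genes of the log2 ratio of CPM to the WT-control mean, the middle panel the summed CPM of 7 photosystem and mesophyll genes, and the lower panel the summed CPM of 4 flower and meristem genes; WT-control replicate 2 lies at -0.39 in the upper panel, below all 3 WT-drought libraries, and has the highest sum in the lower panel, 29.7 CPM.

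The clearest change was with drought in *MtPHD6* plants. In PHD6-drought vs. PHD6-control 29 of the 35 genes fell and 0 rose at a Benjamini-Hochberg adjusted p under 0.05 from edgeR's quasi-likelihood test, where 12.7% of the 19681 genes tested fell and 9.49% rose. They were 18 of the 22 Calvin cycle genes and 11 of the 13 photorespiration genes. The median log2 fold change was -0.44 over the 35 genes and 0.02 over all genes tested, and single genes ran from -0.75 (*GLDP1*) to 0.06 (*CP12-3*). For 31 of the genes every PHD6-drought library lay below every PHD6-control library, which held for 21.3% of all genes. The 6 genes that did not pass were *RBCS1A*, AT1G56190, *RPE*, *CP12-3*, *PGLP1* and *GGT1*. The number that fell was 15 without PHD6-control replicate 1, 15 without PHD6-control replicate 2, 19 without PHD6-drought replicate 3 and 19 with all 12 libraries fitted together. Over all genes the number that fell was 2496 in the main fit and, in the same order, 1268, 1306, 1571 and 2756. Of the 29 genes, 15 kept the call under every alternative in which they were tested. The 14 that lost it at least once were *RBCS1B*, *RBCS2B*, *RBCS3B*, *RCA*, *GAPA*, *PGK1*, *FBA2*, *CP12-1*, *TIM*, *EMB3119*, *GOX2*, *SHM1*, *GLDP2* and *GLYK*.

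In WT plants the answer turned on the library described above. With all 6 libraries of WT-drought vs. WT-control none of the 35 genes passed edgeR's test, where 7.18% of all genes fell and 12.2% rose. At an unadjusted p under 0.05 there were 5, against 6318 of the 19681 genes tested. With DESeq2 3 passed, all lower (*RBCS1B*, *FBA1* and *CP12-2*), where 1507 of all genes were lower. With replicate numbers as a block 1 was lower (*FBA1*), where 1636 of all genes were. The median log2 fold change was -0.20, and 31 of the 35 values were negative. The groups did not overlap in 1 gene, *GDCH*, lower under drought, against 16.4% of all genes. Without WT-control replicate 2, 28 genes passed and all 28 were lower under drought, where 12% of all genes were, and the median was -0.36. That library was left out because these same genes were low in it, so the 28 calls depend on this choice. Without WT-control replicate 1 or replicate 3 instead, 0 of the 35 genes passed, where 1211 and 877 of all genes were lower. The log2 fold changes of the 28 ran from -0.64 (*RBCS1B*) to -0.22 (*SHM1*). They were -0.49 for *RBCS2B*, -0.48 for *SBPASE* and -0.51 for AT1G11860, for which only the *MtPHD6* change is given below. Of these 28 genes, 26 were among the 29 that fell in *MtPHD6* plants. As 29 of the 35 genes fell there, most of any 28 of them would be shared. The WT-control replicates 1 and 3 lay above all 3 WT-drought libraries in 31 of the 35 genes. This count compares 2 control libraries with 3, and the library left out was the lowest of its group. It was not computed over all genes.

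The drought change was then compared between genotypes in a single fit of all 12 libraries. None of the 35 genes passed the interaction test, where 6.98% of all genes did in either direction. At an unadjusted p under 0.05 there were 2, against 3398 of the 19681 genes tested. DESeq2 also called none of the 35, where 373 of all genes were called higher and 1225 lower. The median difference, drought change in *MtPHD6* plants minus that in WT plants, was -0.24 on the log2 scale, with 34 of 35 values negative. It was -0.09 without WT-control replicate 2, again with none of the 35 genes called, where 6.55% of all genes were. The lowest adjusted p belonged to *GLU1*, with a difference of -0.43 (standard error, SE, 0.16; adjusted p = 0.163 from edgeR), and -0.30 (SE 0.09, adjusted p = 0.093) without WT-control replicate 2. The larger number of calls in *MtPHD6* plants was therefore not shown to be a difference between genotypes. Across the 34 genes other than *PGLP1*, the log2 changes in the 2 genotypes, which come from separate libraries, went together with Pearson's r = 0.83 (0.86 without WT-control replicate 2). This is a correlation across genes, which share libraries and are not independent replicates.

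**Figure D2:**
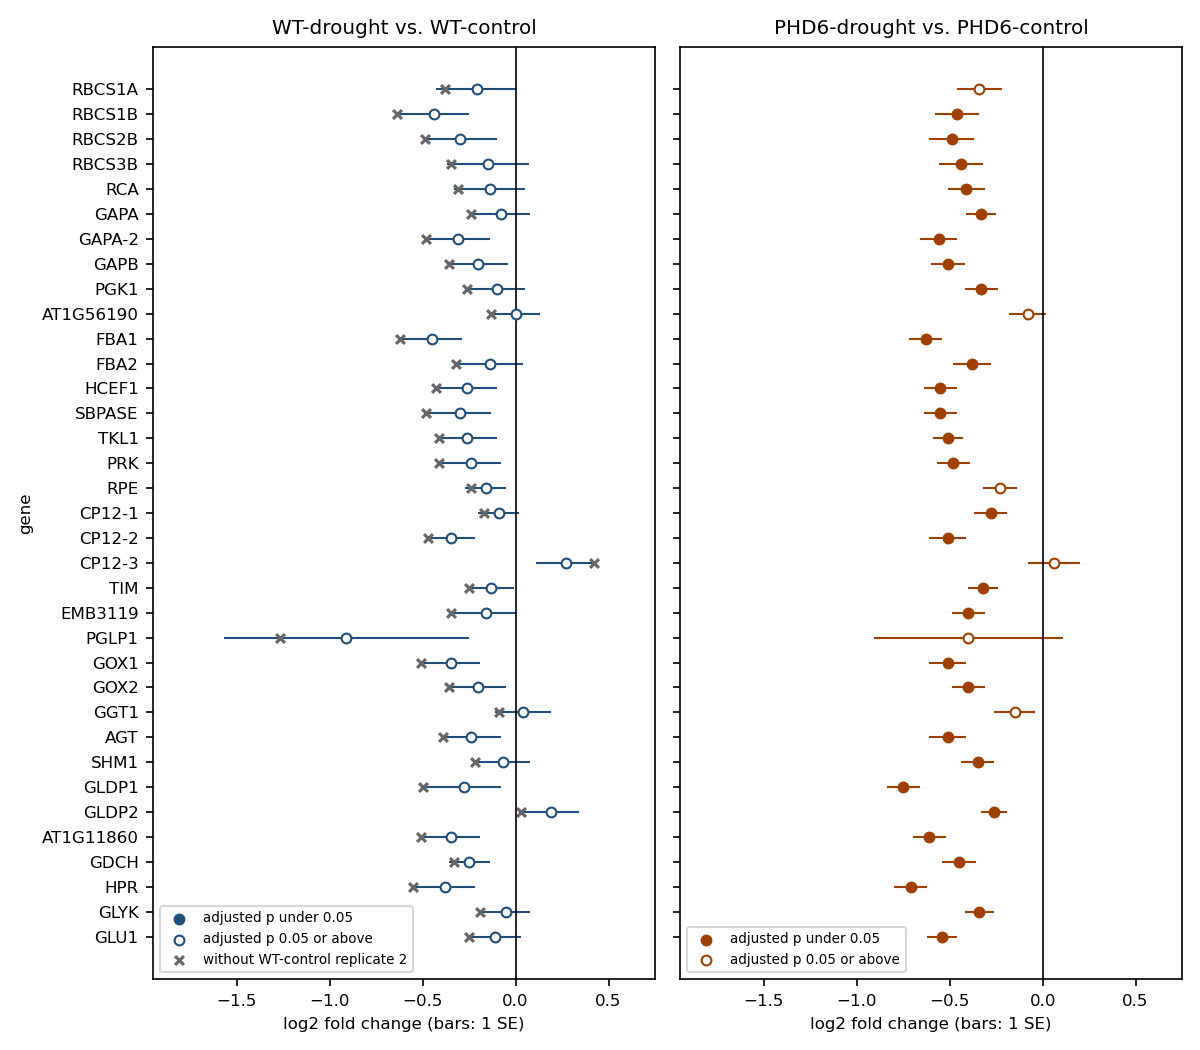
Log2 fold change with drought of each of the 35 genes in WT plants (left) and *MtPHD6* plants (right), with bars of 1 SE (standard error) and filled points for an adjusted p under 0.05. No point is filled on the left and 29 are on the right; grey crosses on the left give the values without WT-control replicate 2, which lie further from 0 than the circles for most genes.

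Few of these genes differed between genotypes within a treatment. None passed in PHD6-control vs. WT-control, where 4.98% of all genes were called. DESeq2 called none either, where 1219 of all genes were higher and 264 lower. At an unadjusted p under 0.05 there was 1 gene, against 3560 of the 19681 tested. The median log2 fold change was 0.06 with all libraries and, without WT-control replicate 2, -0.09 with none of the 35 genes and 4.17% of all genes called, so no direction can be given. Only *GGT1* had libraries that did not overlap, higher in PHD6-control, against 13.9% of all genes. In PHD6-drought vs. WT-drought 1 gene, *GLDP1*, was lower, where 3.89% of all genes were. At an unadjusted p under 0.05 there were 12, against 4443 of the 19681 genes tested. The median log2 fold change was -0.15, and 33 of 35 values were negative. The libraries did not overlap in 25 of the 35 genes, all lower in PHD6-drought, against 15.7% of all genes. DESeq2 called 9 genes, all lower: *GLDP1* with *GAPA-2*, *GAPB*, *FBA1*, *HCEF1*, *SBPASE*, AT1G11860, *HPR* and *GLU1*. Of all genes, DESeq2 called 1045 lower there. The comparisons share libraries with the drought comparisons above, so they are not independent of them.

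**Figure D3:**
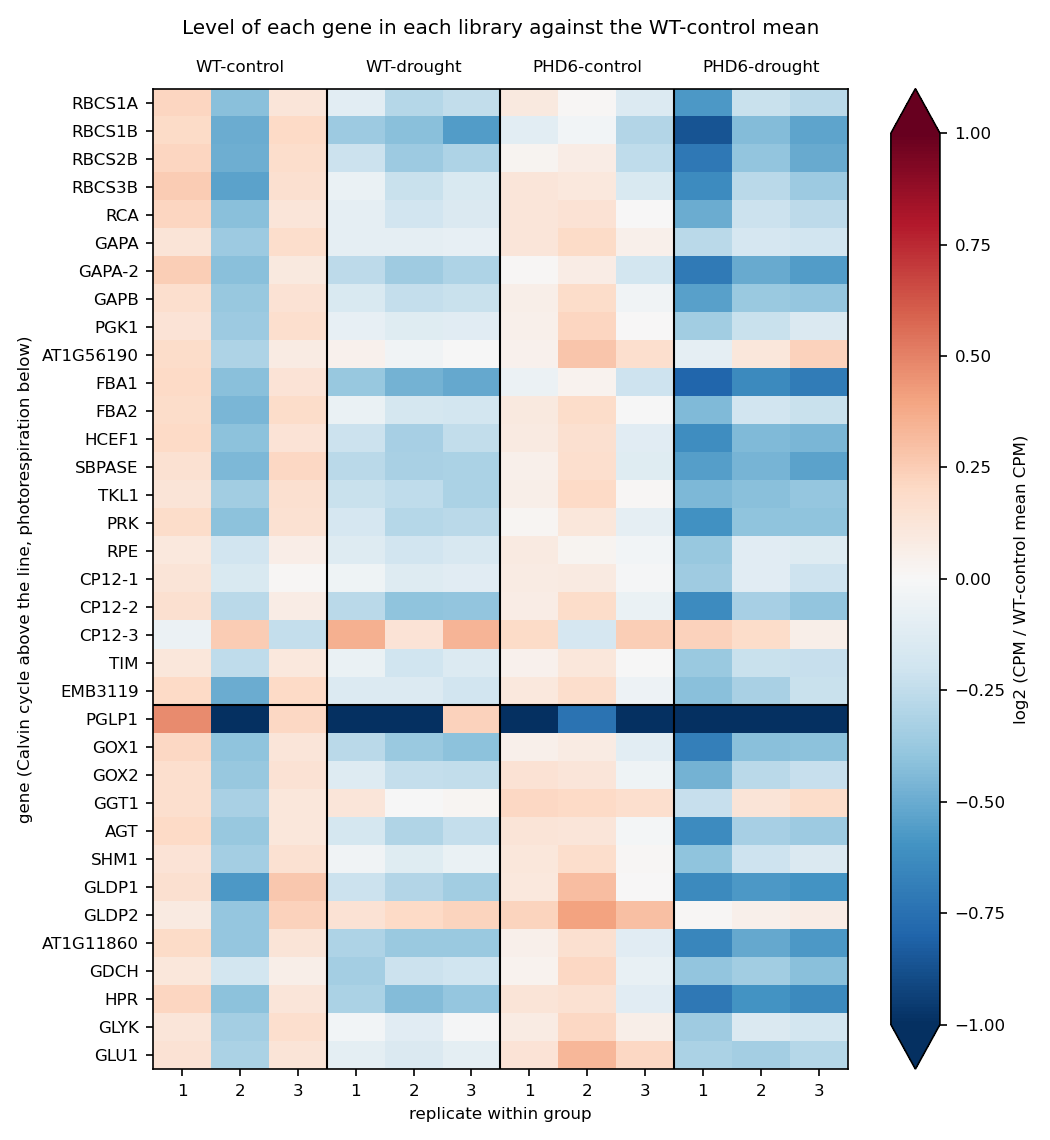
Colour gives the log2 ratio of CPM to the WT-control mean for each of the 35 genes (rows) in each of the 12 libraries (columns, grouped by genotype and treatment); ratios beyond 1 in either direction have the end colours. The column of WT-control replicate 2 is blue in 34 of 35 rows, as are most rows of PHD6-drought, and *PGLP1* varies the most from library to library.

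Rubisco small subunits come from 4 genes, *RBCS1A* (AT1G67090) on chromosome 1 from 25048158 to 25049667 and a tandem group on chromosome 5, *RBCS3B* (AT5G38410, 15376988 to 15378642), *RBCS2B* (AT5G38420, 15380907 to 15382071) and *RBCS1B* (AT5G38430, 15383167 to 15385320), in TAIR10.1. The coding sequence of *RBCS1A* is 90.1 to 90.5% identical to those of the tandem copies, which are 96.7 to 97.3% identical to each other. The start of the coding sequence, which encodes part of the chloroplast transit peptide, is shown from RefSeq for the 4 copies because reads have to be told apart by such differences. Capitals mark bases that differ from *RBCS1A* in an alignment without gaps over the leading 90 bases.
RBCS1A: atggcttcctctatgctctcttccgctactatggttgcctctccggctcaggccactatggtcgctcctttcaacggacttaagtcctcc
RBCS1B: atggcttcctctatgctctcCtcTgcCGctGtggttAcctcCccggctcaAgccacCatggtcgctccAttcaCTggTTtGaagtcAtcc
RBCS2B: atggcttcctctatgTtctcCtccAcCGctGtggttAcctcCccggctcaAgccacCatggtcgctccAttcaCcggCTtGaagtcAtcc
RBCS3B: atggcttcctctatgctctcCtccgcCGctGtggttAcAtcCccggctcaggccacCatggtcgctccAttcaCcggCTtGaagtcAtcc
Windows of 100 bases shared exactly with a transcript of another gene made up 7.5% of those of *RBCS1B* and 12.1% of those of *RBCS3B*, and none of *RBCS1A* or *RBCS2B*. How the counting treated reads that map to several copies is not given in the sources used here, so the split between the tandem copies is uncertain.

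*RBCS1A* had 19176, 12337 and 17957 CPM in WT-control and 15361, 13526 and 13879 CPM in WT-drought. In *MtPHD6* plants it had 17636, 16593 and 15021 CPM in control and 11062, 14121 and 13683 CPM under drought. The PHD6-drought libraries all lay below those of PHD6-control, while the WT groups overlapped through WT-control replicate 2 alone. The gene did not pass in either genotype, with a log2 fold change of -0.34 (SE 0.12, adjusted p = 0.0765 from edgeR) in *MtPHD6* plants and -0.21 (SE 0.22, adjusted p = 0.573) in WT plants. In WT plants without WT-control replicate 2 it was -0.38 (SE 0.07, adjusted p = 0.00682).

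*RBCS3B* had 8431, 4880 and 7893 CPM in WT-control and 6748, 6051 and 6372 CPM in WT-drought. It had 7701, 7613 and 6347 CPM in PHD6-control and 4561, 5854 and 5504 CPM in PHD6-drought. The pattern was that of *RBCS1A*, with a separation of the PHD6 groups and a low WT-control replicate 2. *RBCS2B* had 4062, 2488 and 3948 CPM in WT-control and 3013, 2714 and 2818 CPM in WT-drought. Its values were 3564, 3688 and 2934 CPM in PHD6-control and 2129, 2669 and 2474 CPM in PHD6-drought, again without overlap. *RBCS1B*, the copy with the fewest counts, had 1750, 1090 and 1767 CPM in WT-control and 1196, 1149 and 1041 CPM in WT-drought. It had 1426, 1507 and 1255 CPM in PHD6-control and 842, 1134 and 1064 CPM in PHD6-drought. The 3 tandem copies fell with drought in *MtPHD6* plants, with log2 fold changes of -0.44 (*RBCS3B*), -0.49 (*RBCS2B*) and -0.46 (*RBCS1B*), each with an SE of 0.12 and adjusted p from 0.0227 to 0.0343. With the 3 copies summed into a single gene, to set aside the split of reads, the change was -0.46 (SE 0.12, adjusted p = 0.0323). All 3 lost the call with all 12 libraries fitted together, without PHD6-control replicate 1, without PHD6-control replicate 2 and without PHD6-drought replicate 3.

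*RCA* (AT2G39730, chromosome 2 from 16570746 to 16573692) encodes Rubisco activase, which frees the Rubisco active site of inhibitory sugar phosphates. Its levels were 6005, 3875 and 5630 CPM in WT-control and 4845, 4519 and 4667 CPM in WT-drought. They were 5609, 5728 and 5186 CPM in PHD6-control and 3656, 4461 and 4314 CPM in PHD6-drought, with no overlap between the last 2 groups. It fell with drought in *MtPHD6* plants by 0.41 on the log2 scale (SE 0.10, adjusted p = 0.0227 from edgeR). In WT plants the change was -0.14 (SE 0.19, adjusted p = 0.656), and -0.31 (SE 0.06, adjusted p = 0.0078) without WT-control replicate 2.

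Per length of exon, *RBCS1A* stood at the top of the 35 genes with 13005 ± 2877 CPM per kb (SD, n = 3) in WT-control, followed by *RBCS3B* with 5013 ± 1357, *RBCS2B* with 3742 ± 939 and *RCA* with 2461 ± 541. The group SDs of *RBCS3B* and *RBCS2B* overlap, but *RBCS3B* was above *RBCS2B* on this scale within each of the 12 libraries, by 1.3 to 1.5 times. *RBCS1B* came at place 12 with 811 ± 204, and its annotated transcript of 1894 bases, against 935 for *RBCS2B*, lowers its value on this scale. The low end was held by *GLDP2* with 76.2 ± 16.2, *PGLP1* with 33.3 ± 16.1 and *CP12-3* with 8.78 ± 1.53 CPM per kb.

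**Figure D4:**
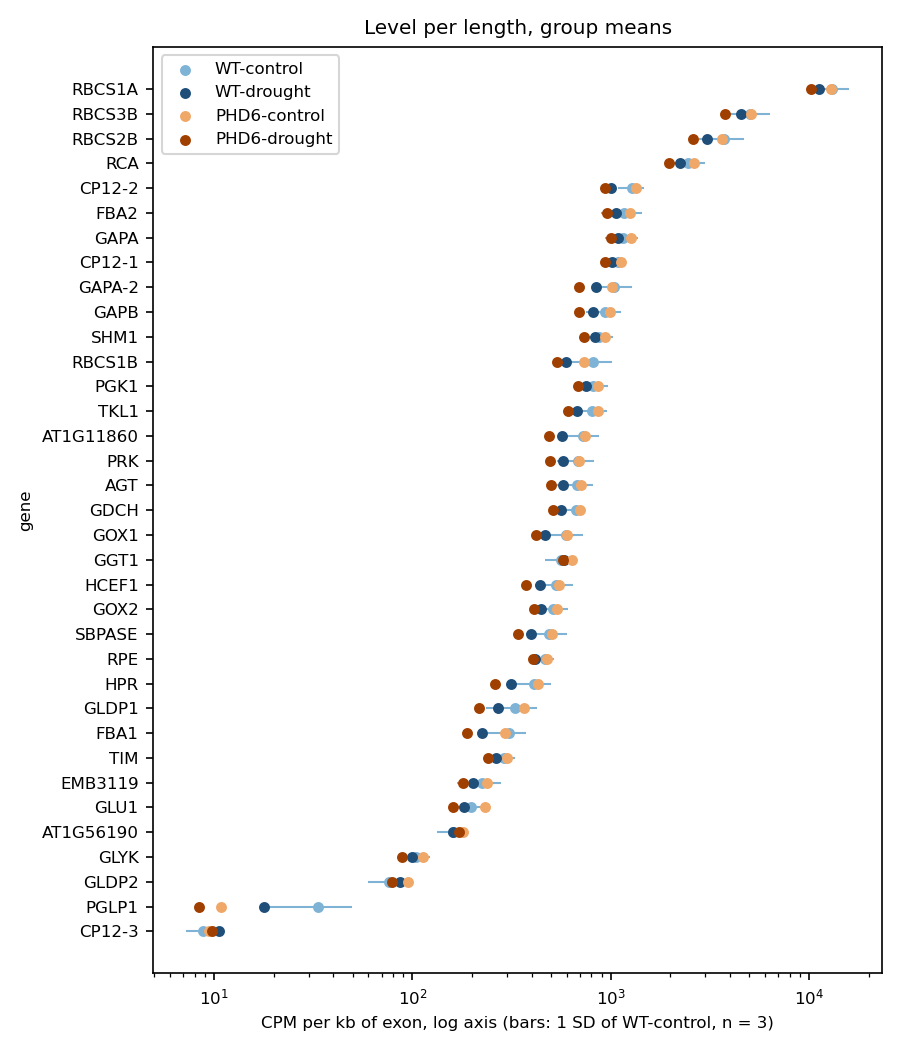
Group means of the level per length of each gene, in CPM per kb of exon on a log axis, in the order of WT-control, with bars of 1 SD for WT-control (n = 3). Levels span from 13005 for *RBCS1A* to 8.78 for *CP12-3* in WT-control, and for most genes the PHD6-drought point lies furthest to the left.

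Enzymes of the reduction phase fell with drought in *MtPHD6* plants except for 1 copy. *PGK1* encodes a plastid phosphoglycerate kinase and fell by 0.33 on the log2 scale (SE 0.09, adjusted p = 0.0334 from edgeR). AT1G56190, annotated as a further gene of the phosphoglycerate kinase family, had 320, 378 and 350 CPM in PHD6-control and 292, 337 and 365 CPM in PHD6-drought, which overlap, and a change of -0.08 (SE 0.10, adjusted p = 0.631). The subunits of glyceraldehyde-3-phosphate dehydrogenase, which uses the NADPH of the light reactions, all fell. The log2 fold changes were -0.33 for *GAPA* (adjusted p = 0.0194), -0.56 for *GAPA-2* (adjusted p = 0.00607) and -0.51 for *GAPB* (adjusted p = 0.00682).

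In the regeneration phase, *FBA1* (AT2G21330, chromosome 2 from 9128122 to 9130619), a plastid fructose-bisphosphate aldolase, had the largest change of the Calvin cycle genes. It had 604, 645 and 545 CPM in PHD6-control and 364, 404 and 388 CPM in PHD6-drought, and in WT plants 723, 472 and 693 CPM in control and 483, 453 and 442 CPM under drought. The PHD6 groups were well apart, and the WT groups overlapped only because WT-control replicate 2, at 472, lay below 483. The log2 fold change with drought was -0.63 (SE 0.09, adjusted p = 0.00262 from edgeR) in *MtPHD6* plants and -0.45 (SE 0.16, adjusted p = 0.0783) in WT plants. Without WT-control replicate 2 the WT change was -0.62 (SE 0.06, adjusted p = 0.000383). With all 6 libraries *FBA1* passed in WT plants with the replicate block, with DESeq2, with upper-quartile scaling and with all 12 libraries fitted together. Its relative *FBA2* fell by 0.38 (SE 0.10, adjusted p = 0.0263) in *MtPHD6* plants.

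The other enzymes that rebuild the acceptor moved together with drought in *MtPHD6* plants. *HCEF1*, the plastid fructose-1,6-bisphosphatase, and *SBPASE*, the sedoheptulose-bisphosphatase, both had a log2 fold change of -0.55 (SE 0.09 each). *TKL1*, a transketolase, had -0.51 and *PRK*, the phosphoribulokinase that makes ribulose bisphosphate, had -0.48. *TIM*, the plastid triose phosphate isomerase, fell by 0.32 and *EMB3119*, a ribose-5-phosphate isomerase, by 0.40. *RPE*, the ribulose-phosphate epimerase, did not pass. It had 751, 722 and 694 CPM in PHD6-control and 543, 655 and 648 CPM in PHD6-drought, which do not overlap, with a change of -0.23 (SE 0.09, adjusted p = 0.107 from edgeR).

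CP12 proteins bind glyceraldehyde-3-phosphate dehydrogenase and phosphoribulokinase into an inactive complex in the dark. *CP12-2* fell by 0.51 on the log2 scale (SE 0.10, adjusted p = 0.0107 from edgeR) with drought in *MtPHD6* plants and *CP12-1* by 0.28 (SE 0.09, adjusted p = 0.0497), a call that was lost under several alternatives. *CP12-3*, by far the lowest of the 3, had 7.72, 6.04 and 8.03 CPM in PHD6-control and 7.95, 7.69 and 7.06 CPM in PHD6-drought. Its groups overlapped, and it was the only one of the 35 genes with a positive change in that comparison, 0.06 (SE 0.14, adjusted p = 0.802), which was -0.05 without PHD6-control replicate 2. In WT plants it had 6.51, 8.06 and 5.74 CPM in control and 8.65, 7.43 and 8.55 CPM under drought. Alone among the 35 genes it was highest of its group in WT-control replicate 2.

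Photorespiration starts in the chloroplast with phosphoglycolate phosphatase. *PGLP1* (AT5G36700, chromosome 5 from 14421182 to 14424610) had 97.9, 32.2 and 81.2 CPM in WT-control and 11.5, 18.9 and 82.6 CPM in WT-drought. It had 13.5, 42.2 and 13.7 CPM in PHD6-control and 12.2, 11.4 and 29.5 CPM in PHD6-drought. Within these 4 groups, in that order, its highest value was 3.04, 7.16, 3.14 and 2.59 times its lowest. Its log2 fold change was -1.61 (SE 0.52, adjusted p = 0.143 from edgeR) in PHD6-control vs. WT-control. It passed there only without PHD6-control replicate 2, and in WT-drought vs. WT-control only without WT-drought replicate 3. The coding sequences of *PGLP1* and of AT5G36790 are 100.0% identical over 1089 bases in TAIR10.1, and every 100-base window of the *PGLP1* transcript is found in a transcript of AT5G36790. That gene was not analysed here, so the *PGLP1* counts are uncertain.

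In the peroxisome, glycolate oxidase turns glycolate into glyoxylate. *GOX1* and *GOX2* lie side by side on chromosome 3 (4821391 to 4824178 and 4818251 to 4821013), with coding sequences 92.4% identical and no shared window of 100 bases. With drought in *MtPHD6* plants *GOX1* fell by 0.51 on the log2 scale (SE 0.10, adjusted p = 0.00969 from edgeR) and *GOX2* by 0.40 (SE 0.09, adjusted p = 0.0176), and summed into a single gene they fell by 0.46 (adjusted p = 0.0134). Glyoxylate is then turned into glycine by aminotransferases. *AGT*, the serine:glyoxylate aminotransferase, fell by 0.51 (SE 0.10, adjusted p = 0.00914), whereas *GGT1*, the glutamate:glyoxylate aminotransferase, had 1430, 1420 and 1390 CPM in PHD6-control and 1055, 1354 and 1407 CPM in PHD6-drought. The *GGT1* groups overlapped, with a change of -0.15 (SE 0.11, adjusted p = 0.368). A difference between the 2 genes was not tested.

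The mitochondrial glycine decarboxylase included the gene with the largest drought change among the 29 that fell in *MtPHD6* plants, *GLDP1*. *GLDP1* (AT4G33010, chromosome 4 from 15926652 to 15931422) and *GLDP2* (AT2G26080, chromosome 2 from 11109003 to 11114291) encode its P-protein, which removes CO2 from glycine. *GLDP1* had 1324, 797 and 1431 CPM in WT-control and 1020, 968 and 929 CPM in WT-drought. It had 1273, 1465 and 1187 CPM in PHD6-control and 760, 796 and 783 CPM in PHD6-drought, the lowest 3 values of the 12. Its log2 fold change with drought was -0.75 (SE 0.09, adjusted p = 0.00193 from edgeR) in *MtPHD6* plants, and it was the 1 gene lower in PHD6-drought than in WT-drought, by -0.31 (SE 0.07, adjusted p = 0.0372). The latter call was lost with the replicate block, with all 12 libraries fitted together, and without any of the WT-drought libraries or PHD6-drought replicates 2 or 3. In WT plants the change was -0.28 (SE 0.20, adjusted p = 0.38), or -0.50 (SE 0.07, adjusted p = 0.00134) without WT-control replicate 2. The interaction test gave -0.46 (SE 0.24, adjusted p = 0.354), and -0.25 (SE 0.12, adjusted p = 0.335) without that library.

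*GLDP2* had 321, 231 and 355 CPM in WT-control and 334, 347 and 352 CPM in WT-drought. Its values were 353, 399 and 372 CPM in PHD6-control and 305, 314 and 319 CPM in PHD6-drought. It fell in *MtPHD6* plants with -0.26 (SE 0.07, adjusted p = 0.0367 from edgeR). That call was lost when any 1 of the 6 libraries was left out, with the replicate block and with all 12 libraries fitted together. In WT plants its change was 0.19 (SE 0.15, adjusted p = 0.436), and 0.03 (SE 0.07) without WT-control replicate 2. The interaction test gave -0.45 (SE 0.17, adjusted p = 0.184) with all libraries and -0.29 (SE 0.10, adjusted p = 0.119) without that library, neither of which passes.

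Other parts of the enzyme and the steps that follow moved in the same direction with drought in *MtPHD6* plants. AT1G11860 (chromosome 1 from 4001113 to 4003748), annotated as the aminomethyltransferase or T-protein, had 1613, 1738 and 1436 CPM in PHD6-control and 991, 1092 and 1046 CPM in PHD6-drought, a change of -0.61 (SE 0.09, adjusted p = 0.00384 from edgeR). *GDCH*, the lipoyl-bearing H-protein, fell by 0.45 and *SHM1*, the serine hydroxymethyltransferase that works with the complex, by 0.35. *HPR* (AT1G68010, chromosome 1 from 25493193 to 25496053), the peroxisomal hydroxypyruvate reductase, had 804, 815 and 681 CPM in PHD6-control and 447, 486 and 473 CPM in PHD6-drought. In WT plants it had 852, 554 and 798 CPM in control and 591, 543 and 563 CPM under drought, where only WT-control replicate 2 overlaps. Its log2 fold change was -0.71 (SE 0.09, adjusted p = 0.00206) in *MtPHD6* plants and -0.38 (SE 0.16, adjusted p = 0.135) in WT plants, where it was -0.55 (SE 0.06, adjusted p = 0.000777) without WT-control replicate 2. *GLYK*, the glycerate kinase that returns carbon to the Calvin cycle, fell by 0.34 and *GLU1*, the ferredoxin-dependent glutamate synthase that takes back the ammonia, by 0.54 in *MtPHD6* plants.

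Copies of the same enzyme did not keep their proportions under drought. The share of a family's counts held by each copy is taken within a library and so does not depend on library size or on a general fall of the genes. Of the *GLDP* counts, *GLDP2* held 19.5, 22.5 and 19.9% in WT-control and 24.6, 26.4 and 27.5% in WT-drought. It held 21.7, 21.4 and 23.9% in PHD6-control and 28.6, 28.3 and 28.9% in PHD6-drought. Every drought library was above every control library of its genotype, and WT-control replicate 2 kept to the side of its group. The PHD6-drought shares were also all above those of WT-drought. These shares were given no test.

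*FBA1* held 23.5, 23.9 and 22.8% of the counts of *FBA1* and *FBA2* in WT-control and 19.7, 19.8 and 19.5% in WT-drought. It held 21.4, 21.5 and 20.9% in PHD6-control and 19.3, 18.2 and 18% in PHD6-drought. The share was lower under drought in both genotypes and also lower with the transgene than without it under both treatments, without overlap in any of the 4 comparisons. *GAPA-2* held 45.3 ± 1.79% (SD, n = 3) of the *GAPA* counts in WT-control, 41.6 ± 0.814% in WT-drought, 42.7 ± 1.13% in PHD6-control and 39.0 ± 0.892% in PHD6-drought. *GOX1* went from 56.0 ± 0.546 to 53.6 ± 0.275% of the *GOX* counts in WT plants and from 54.9 ± 0.477 to 53.0 ± 0.608% in *MtPHD6* plants. *CP12-2* went from 44.9 ± 1.64 to 40.6 ± 0.519% of the *CP12* counts in WT plants and from 45.2 ± 1.29 to 41.1 ± 0.742% in *MtPHD6* plants. For each of these copies the control and drought libraries did not overlap in either genotype. *RBCS1A* was apart only in *MtPHD6* plants. It held 57.9 ± 1.29% in WT-control, 57.9 ± 0.429% in WT-drought, 57.8 ± 1.21% in PHD6-control and 59.7 ± 0.451% in PHD6-drought.

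**Figure D5:**
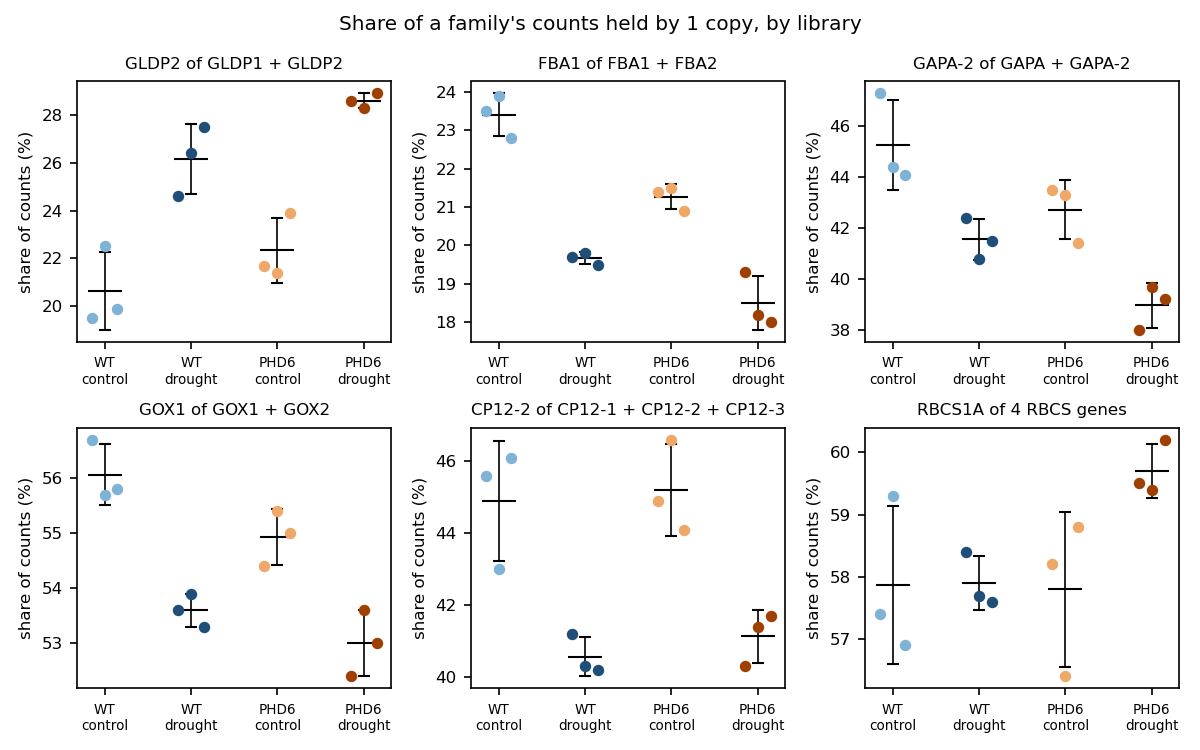
Share of a family's counts held by 1 copy in each library (points), with the group mean and SD (bars, n = 3); the axes do not start at 0. In the *GLDP*, *FBA*, *GAPA*, *GOX* and *CP12* families drought and control libraries of a genotype do not overlap, while the *RBCS1A* share of WT plants stayed at a mean of 57.9% in both treatments. The other *RBCS* copies are not drawn.

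Promoters were read for the *RBCS* genes and for the *GLDP* pair, whose copies both fell with drought in *MtPHD6* plants but changed in their shares of counts. Each window holds 250 bases before and 50 bases after the most downstream annotated transcript start, on the gene's strand, from RefSeq TAIR10.1. All 6 genes shown lie on the minus strand. Capitals mark the G-box, CACGTG, and the I-box, GATAAG on either strand (CTTATC when on the opposite one), which are elements known from light-regulated plant promoters.
RBCS1A (chr1:25049375-25049674): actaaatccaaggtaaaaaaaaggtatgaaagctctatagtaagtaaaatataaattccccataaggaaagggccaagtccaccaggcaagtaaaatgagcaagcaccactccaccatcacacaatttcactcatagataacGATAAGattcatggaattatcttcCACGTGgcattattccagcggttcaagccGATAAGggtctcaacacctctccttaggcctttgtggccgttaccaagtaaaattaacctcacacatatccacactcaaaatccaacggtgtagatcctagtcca
RBCS1B (chr5:15385198-15385497): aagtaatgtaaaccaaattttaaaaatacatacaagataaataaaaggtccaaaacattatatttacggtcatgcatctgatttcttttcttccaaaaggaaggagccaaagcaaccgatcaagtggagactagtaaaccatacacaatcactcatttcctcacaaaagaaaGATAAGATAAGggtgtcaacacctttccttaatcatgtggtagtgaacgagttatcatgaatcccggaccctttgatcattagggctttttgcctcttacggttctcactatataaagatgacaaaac
RBCS2B (chr5:15382022-15382321): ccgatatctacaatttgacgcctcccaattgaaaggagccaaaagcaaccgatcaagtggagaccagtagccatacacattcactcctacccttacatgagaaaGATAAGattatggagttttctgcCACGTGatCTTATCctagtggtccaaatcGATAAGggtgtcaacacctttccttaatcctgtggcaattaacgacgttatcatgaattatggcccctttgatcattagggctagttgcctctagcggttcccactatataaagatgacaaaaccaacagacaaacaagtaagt
RBCS3B (chr5:15378367-15378666): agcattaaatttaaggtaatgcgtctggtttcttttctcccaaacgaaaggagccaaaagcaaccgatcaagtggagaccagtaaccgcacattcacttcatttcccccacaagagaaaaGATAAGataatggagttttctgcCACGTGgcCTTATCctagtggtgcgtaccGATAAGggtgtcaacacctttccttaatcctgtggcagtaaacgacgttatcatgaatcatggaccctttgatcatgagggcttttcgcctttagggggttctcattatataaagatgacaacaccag
GLDP1 (chr4:15931283-15931582): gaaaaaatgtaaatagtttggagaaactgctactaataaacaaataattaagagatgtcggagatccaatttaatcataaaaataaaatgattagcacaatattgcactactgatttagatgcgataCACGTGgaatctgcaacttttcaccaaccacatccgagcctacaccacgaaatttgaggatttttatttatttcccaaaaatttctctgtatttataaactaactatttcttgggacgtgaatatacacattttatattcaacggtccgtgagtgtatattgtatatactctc
GLDP2 (chr2:11114242-11114541): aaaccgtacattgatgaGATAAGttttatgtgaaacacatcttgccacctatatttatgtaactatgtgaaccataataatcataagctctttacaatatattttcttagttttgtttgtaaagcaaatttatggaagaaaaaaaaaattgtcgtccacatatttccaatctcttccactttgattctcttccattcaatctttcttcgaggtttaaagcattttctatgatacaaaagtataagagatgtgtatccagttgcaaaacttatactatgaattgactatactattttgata
In *RBCS1A*, *RBCS2B* and *RBCS3B* a G-box lies between I-boxes, and it begins 84, 123 and 107 bases before the transcript start. *RBCS1B*, which fell with drought like its tandem neighbours, has 2 overlapping I-boxes, 78 and 73 bases before its start, and no G-box. *GLDP1* has a G-box 123 bases before its start and no I-box, and *GLDP2* has an I-box and no G-box. Over the 35 genes 10 windows held a G-box, against 7.55% of 27443 protein-coding promoters, and 12 held an I-box, against 15%. The GT-1 box, GGTTAA, was found on either strand in 5 of the 35 windows, against 16.2% of all promoters. The letters TATAAA were found in 17, against 50.3%. The G-rich letters GNGGTG or GTGGNG, which overlap each other and were described for the alfalfa protein Alfin1, were found on either strand in 20 of the 35 windows and in 29.8% of all promoters. These are matches of letters in windows of 300 bases, and neither binding nor regulation was measured here.

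Genes that work with the pathway were read from lists made for this purpose. Of all genes tested, 12.7% fell with drought in *MtPHD6* plants and 7.18% in WT plants, and several lists are too short to compare with these shares. Of 11 Rubisco assembly and maintenance genes, 10 fell with drought in *MtPHD6* plants (median log2 fold change -0.40). Among them *CBBY*, a phosphatase that removes an inhibitor of Rubisco, had -0.53 (SE 0.09, adjusted p = 0.00702 from edgeR), and *CPN60B1*, a subunit of the chloroplast chaperonin, had -0.49 (adjusted p = 0.00913). *BSD2*, a Rubisco assembly chaperone, was the only gene of this list to pass in WT plants with all libraries, with -0.42 in both genotypes (adjusted p = 0.00733 in WT plants and 0.0144 in *MtPHD6* plants). Of 10 starch and sucrose genes 9 fell in *MtPHD6* plants (median -0.42), led by *SPS4F*, a sucrose-phosphate synthase, with -1.1 (SE 0.09, adjusted p = 0.000366). *SPS4F* also fell in WT plants, with -0.90 (SE 0.23, adjusted p = 0.0247), though its WT libraries overlapped. Of 19 further photorespiration genes tested 8 fell (median -0.29), with -0.46 for *BOU*, a mitochondrial carrier (adjusted p = 0.00469), and -0.48 for *mtLPD1*, the lipoamide dehydrogenase of glycine decarboxylase (adjusted p = 0.00648). Of 7 thioredoxin system genes 2 fell, *NTRC* and *TRXF1*, and of 3 further Calvin cycle genes 1 did.

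Marker lists of leaf cell types gave the following beside these changes. Of all genes tested, 12.7% fell and 9.49% rose with drought in *MtPHD6* plants. With drought in *MtPHD6* plants 2 of 7 photosystem and mesophyll genes fell, *CA1* (a carbonic anhydrase) with -1.56 (SE 0.14, adjusted p = 0.000483 from edgeR) and *PETE2* (plastocyanin) with -0.42 (adjusted p = 0.0168), and the list's sum was 37353 to 41955 CPM in PHD6-control and 26724 to 34526 CPM in PHD6-drought. *CA1* also fell in WT plants, with -1.02 (SE 0.19, adjusted p = 0.00686). Of 4 epidermis genes 3 fell in *MtPHD6* plants, among them the wax gene *CER1*, and of 4 guard cell genes 1, *KAT1*. None of 4 phloem genes and none of 4 flower and meristem genes passed. Of 6 senescence genes tested *ORE1* rose, with 0.94 (adjusted p = 0.0327), and *NYC1* fell, with -0.71 (adjusted p = 0.00274), while *SAG12* was at 0 in 9 of 12 libraries. The part of cell composition in the changes of the 35 genes was not tested.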

How the data were processed

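RNA-seq libraries of rosette leaves were analysed from the count table that the authors deposited. These are whole-number counts per gene that had not been normalized. Per the submitters' processing notes, the authors aligned reads to the Arabidopsis genome with HISAT2 2.0.5 and counted them with featureCounts 1.5.0-p3. Strand setting and treatment of multimapping reads are not given in the sources used here. Of 38082 entries 2021 carried no gene ID (0.387 to 0.463% of counts) and were left out. Symbols, coordinates and sequences were taken from RefSeq TAIR10.1 by gene ID, since the table holds no positions. Of 1045 genes with positions given by the study, 1044 had those of TAIR10.1.

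Genes were filtered with filterByExpr (minimum count 10 over the 4 groups), normalized by TMM and tested with edgeR 4.0.16 (quasi-likelihood, R 4.3.3), with 6 libraries per comparison and all 12 for the interaction. P-values were adjusted over all 19681 genes by the Benjamini-Hochberg method, with a threshold of 0.05. The study calls the replicates biological but leaf material was pooled from many plants, so p-values measure the spread between these samples. Levels per length used the summed length of all annotated exons of a gene (their union) in TAIR10.1. Alternatives were DESeq2 1.42.0 and its size factors, upper-quartile scaling, other filters, left-out organelle genes, members left out of library sizes, summed tandem copies, a replicate block and leaving out each library.

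The members and lists were chosen with earlier results of these data known. Named with values in each library were the *RBCS* genes, *RCA* and, per comparison, the 3 called members with the largest change, and for other lists at most 3 called genes with the smallest p. *CP12-3*, *GGT1*, *RPE*, AT1G56190, AT1G11860, *GLDP2* and *PGLP1* were added after their values were seen. Deviations of same-numbered WT libraries from their group means correlated with r = 0.36, 0.212 and 0.115. The highest value with a library of another number was -0.128, 0.031 and 0.1. In no other comparison did every same-numbered pair exceed that value. The labels give no pairing, so the main fits had no replicate block, and the block was run as an alternative only. The genes *rbcL*, AT5G36790 and *mtLPD2* were not analysed here.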

Additional observations from a re-analysis of the deposited data

Results flagged for a closer look

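*WRKY53*, a transcription factor of leaf senescence, passed the test of a different drought change between genotypes among the marker genes. The difference, drought change in *MtPHD6* plants minus that in WT plants, was -1.74 on the log2 scale (standard error 0.44, adjusted p = 0.0303 from edgeR), with *WRKY53* higher in WT-drought than in WT-control by 2.23 and higher in PHD6-control than in WT-control by 2.58 on that scale. Without WT-control replicate 2 the difference for *WRKY53* was -2.06 (standard error 0.48, adjusted p = 0.0253 from edgeR).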

How the results depend on the processing

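The number of the 35 genes that fell in PHD6-drought vs. PHD6-control, 29, was 24 with the replicate block, 30 with DESeq2 and 19 with all 12 libraries fitted together, and 15 to 28 when each library was left out in turn. Over all genes, 2496 fell in the main fit, 2295, 2552 and 2756 under those alternatives, and 1268 to 2565 with a library left out. In WT-drought vs. WT-control the number of the 35 genes, 0 in the main fit, was 2 with upper-quartile scaling, 3 with DESeq2, 1 with all 12 libraries fitted together and 1 with the replicate block, and 0 to 28 with a library left out. Over all genes, 1413 fell in the main fit, 2292, 1507, 1690 and 1636 under those alternatives, and 658 to 2361 with a library left out. In PHD6-drought vs. WT-drought the number of the 35 genes, 1 in the main fit, was 3 with upper-quartile scaling, 9 with DESeq2, 2 with a minimum of 1 CPM in all libraries, 0 with all 12 libraries fitted together and 0 with the replicate block, and 0 to 2 with a library left out. Over all genes, 765 were lower in the main fit, 802, 1045, 830, 639 and 458 under those alternatives, and 181 to 1218 with a library left out. In PHD6-control vs. WT-control the number of the 35 genes was 0 to 1 with a library left out, where 55 to 142 of all genes were lower. The interaction called none of the 35 genes under any alternative run. No change that passed the test turned its direction. Among those that did not pass, in PHD6-drought vs. PHD6-control 3 genes turned with a library left out, *CP12-3* to -0.05 and *PGLP1* to 0.37 without PHD6-control replicate 2 and AT1G56190 to 0.00 without PHD6-drought replicate 1. In the WT drought comparison 6 genes turned under some alternative, among them *GGT1*, from 0.04 to -0.09 without WT-control replicate 2, and 29 turned in PHD6-control vs. WT-control. The cause of these differences was not tested. Of the changes with drought in *MtPHD6* plants of the genes that fell, 394 single values under an alternative kept their side of the threshold and 65 lost it. The sum of *PGLP1* and AT5G36790 was not run. Same-numbered libraries of the *MtPHD6* drought comparison correlated with r = -0.129, 0.121 and 0.32, and the labels give no pairing for them either. With 3 libraries per group and changes mostly under 0.75 on the log2 scale, 1 library can decide a call.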
